A study of Mus musculus with 4 samples.

Results

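A minority of tumour cells in Py8119 mouse mammary tumours carried RNA of Slurp1, Ly6c1, Lrrn4cl and Sprr1b, 4 genes that most tumour cells of the same tumours did not show. The cells described here were the 5% of gated tumour cells with the highest summed unique molecular identifiers (UMIs) of these 4 genes per 10000 UMIs of the cell. They numbered 1306 of 26135 gated tumour cells, in 45220 cells in all, and are the members in the plots. The gate asked for at least 5 UMIs per 10000 of Krt8, Krt18, Tm4sf1 and Cdkn2a together, under 5 per 10000 of the leukocyte genes Tyrobp, Fcer1g, Cd3e and Cd3g, no Epcam UMI, and at least 300 genes detected. The other 24829 gated tumour cells served for comparison.

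The cells came from single-cell RNA sequencing of 4 libraries of transplanted tumours of the Py8119 line, a mammary carcinoma line established from the MMTV-PyMT transgenic model. The 2 NC libraries have the control genotype, and in the 2 Sema4d-shRNA libraries Sema4d was knocked down with a short hairpin RNA. The labels give no host strain, age or sex, no number or pooling of animals, no hairpin sequence and no clone, and nothing in them says that the 2 libraries of a group came from separate mice. The p-values therefore measure only the spread between these libraries. Values of single libraries are given below in the order NC replicate 1, NC replicate 2, Sema4d-shRNA replicate 1 and Sema4d-shRNA replicate 2. CPM stands for UMIs per 1000000 summed UMIs of the cells named, and CPM values of different genes are not corrected for length.

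Slurp1 and Ly6c1 belong to the Ly6/uPAR family, small proteins built on a fold of finger-like loops. Slurp1 is secreted and acts on epithelia through nicotinic acetylcholine receptors. Ly6c1 is held on the cell surface by a lipid anchor, as is its neighbour Ly6a, the stem cell antigen Sca-1. Ly6c1 is known from endothelium and subsets of T cells. Sprr1b encodes a small proline-rich precursor of the cornified envelope, the cross-linked shell of squamous epithelium, and Lrrn4cl encodes a membrane protein with a fibronectin type III domain. Semaphorin 4D, the product of Sema4d, is a membrane-bound guidance cue that binds plexins.

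Slurp1 lies on the minus strand of chromosome 15 at 74724318 to 74728034, and Ly6c1 on the same strand at 75044018 to 75048830, 319.7 kb away, in GRCm38 coordinates of the GENCODE M21 annotation. Sprr1b lies on chromosome 3 at 92436809 to 92438789, Lrrn4cl on chromosome 19 at 8850768 to 8853909. RefSeq promoter windows of GRCm38.p6 were matched for Ly6c1 and Sprr1b and are shown because these are the sequences before the start of genes that defined the cells; none was matched for Slurp1, Lrrn4cl or Ly6a. Each runs 5′ to 3′ on the strand of the gene over the 250 bases before the start. Both strands were searched for the AP-1 motif, written TGANTCA. They were likewise searched for the TEAD motif, written GGAATG, for the GAS element of STAT factors, written TTCNNNGAA, and for the TATA box, written TATAAA. Capitals mark the matches. The windows are chr15:75048838-75049087 for the outer of the 2 listed Ly6c1 starts and chr3:92438780-92439029 for Sprr1b, both on the minus strand.
Ly6c1: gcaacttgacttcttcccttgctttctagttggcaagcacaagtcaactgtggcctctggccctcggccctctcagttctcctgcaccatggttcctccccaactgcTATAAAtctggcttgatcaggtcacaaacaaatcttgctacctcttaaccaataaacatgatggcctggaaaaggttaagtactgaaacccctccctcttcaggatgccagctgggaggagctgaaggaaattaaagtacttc
Sprr1b: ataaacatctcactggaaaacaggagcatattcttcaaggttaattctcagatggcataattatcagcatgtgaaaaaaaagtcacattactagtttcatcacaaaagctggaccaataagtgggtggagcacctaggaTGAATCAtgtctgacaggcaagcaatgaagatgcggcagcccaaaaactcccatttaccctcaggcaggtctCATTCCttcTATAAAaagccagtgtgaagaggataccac
The Ly6c1 window held 1 match, TATAAA beginning at position -143 from the start. The Sprr1b window held an AP-1 match at -111, a TEAD match on the opposite strand at -39 (read as CATTCC) and TATAAA at -30. The second Ly6c1 start, whose window begins at 75048664, had no match to the 4 motifs. Of 27025 promoter windows of the same length, 6.87% held the AP-1 letters, 12.6% the TEAD letters, 7.18% the GAS letters and 13% the TATA letters, none overlapping another match in the 2 windows shown. The matches describe letters only and were not tested as binding sites.

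The libraries held 83513906 to 119758159 UMIs in 10575 to 13173 cells, and 5090 to 8355 cells of each passed the gate. The chosen cells were shallower than the rest, with a median of 8107 UMIs against 10079. In NC the medians were 9333 and 8342.5 UMIs against 10500 and 9092 in the other gated cells, and under Sema4d-shRNA 7306 and 7119 against 11069 and 9752. After thinning every cell to 2000 UMIs, chosen cells had 873 to 938 genes and the other cells 895 to 926, so that the 2 ranges overlapped. No cell was an exact copy of another; 8360 of 35597 distinct cell names occurred in more than 1 library, but the names are serial numbers and not barcodes.

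Some chosen cells went against the tumour label. A cell was called host-marked when it held UMIs of at least 5 genes of the endothelial, the fibroblast or the T and NK cell list, a criterion set after the data were seen. By library, 8, 2, 9 and 26 chosen cells were host-marked, 45 in all, against 107 of the other gated cells. These were 2.02%, 0.637%, 2.90% and 9.09% of the chosen cells, highest in Sema4d-shRNA replicate 2. Of the other gated cells, 0.356%, 0.272%, 0.391% and 0.607% were host-marked, a lower share in every library. Of the 45, 25 were endothelial-marked (1, 1, 7 and 16 by library), 16 fibroblast-marked and 4 T or NK cell-marked. All 25 endothelial-marked cells had Ly6c1 UMIs and 24 had Tm4sf1, a gate gene, while Krt8 was found in 4, Cdkn2a in 5 and Slurp1 in 0, which allows a share of up to 12.0%. Of the 1261 chosen cells without such marks, 81.4% held Krt8, 87.9% Tm4sf1 and 89.5% Cdkn2a UMIs, genes that the gate itself used. Counts of calls, and genes below that these cells moved, are given also without them.

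Sema4d, the targeted gene, was measured first. In all gated tumour cells it stood at 6.92, 7.79, 4.2 and 5.89 CPM. Both Sema4d-shRNA libraries lay below both NC libraries, with a log2 difference of -0.49 (SE 0.177, n = 2 against 2) that did not pass the test (edgeR quasi-likelihood test with Benjamini-Hochberg adjustment, adjusted p = 0.307). Without Sema4d-shRNA replicate 2 the log2 difference was -0.77 (edgeR adjusted p = 1.7e-05) and without Sema4d-shRNA replicate 1 it was -0.25 (0.325); each leaves 1 Sema4d-shRNA library, assumed to vary like the NC libraries. In the chosen cells Sema4d had 28, 10, 8 and 12 UMIs, or 5.87, 3.38, 2.69 and 4.87 CPM, and the groups overlapped (log2 -0.34, SE 0.478, edgeR adjusted p = 0.811). Without host-marked cells it had 3.51, 3.4, 2.77 and 4.99 CPM, and the difference turned to 0.15 (adjusted p = 0.926). The knock-down was thus not detectable in the chosen cells at this depth. Between the classes, Sema4d was at 7, 8.04, 4.25 and 5.92 CPM in the other gated cells, a log2 difference of -0.52 for chosen against other cells (edgeR adjusted p = 0.0725), which became -0.75 (adjusted p = 0.00941) without host-marked cells.

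The chosen cells made up 6.91% (95% Clopper-Pearson interval 6.27 to 7.60) of gated cells in NC replicate 1 and 6.17% (5.52 to 6.87) in NC replicate 2. Under Sema4d-shRNA they made up 4.45% (3.98 to 4.96) and 3.42% (3.04 to 3.84). The NC mean of 6.54% ± 0.527 (SD, n = 2) was 1.66 times the Sema4d-shRNA mean of 3.94% ± 0.728 (SD, n = 2), and the groups did not overlap. An exact two-sided permutation test gave p = 0.3333, the smallest that 2 libraries against 2 can give. Without host-marked cells the means were 6.48% ± 0.466 and 3.74% ± 0.852 (SD, n = 2). The intervals cover counting error only, and because the 4 genes set the share, it is a description of those genes.

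**Figure D1:**
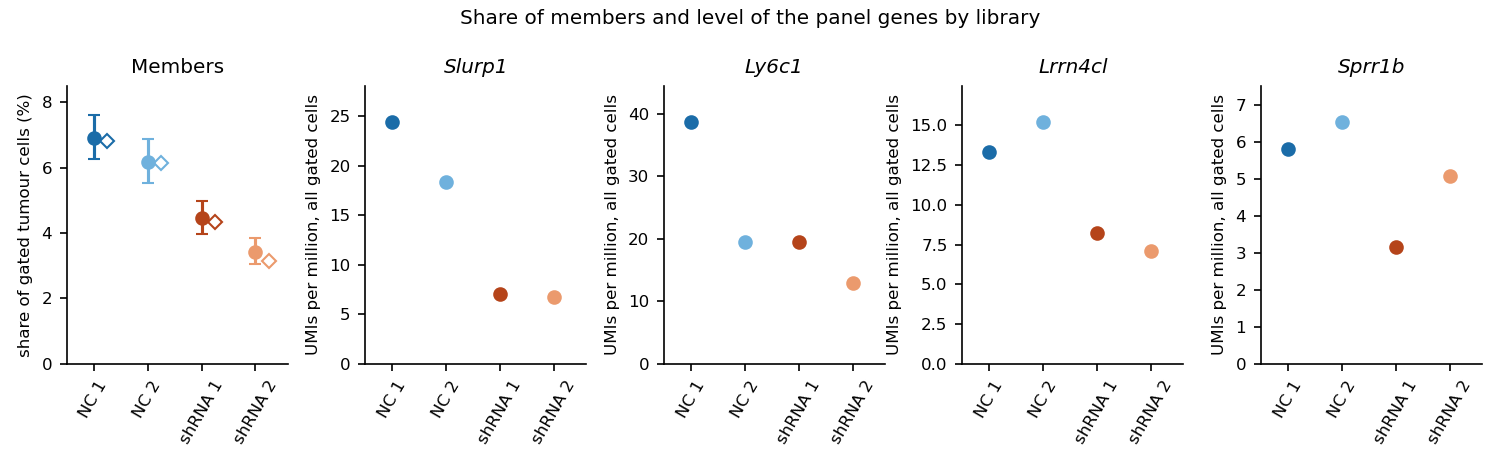
Share of the chosen cells (members) among gated tumour cells in percent, and level of each of the 4 genes in all gated cells in CPM, for each library. Filled points are all members with 95% Clopper-Pearson intervals, and open diamonds are members without host-marked cells. The NC shares of 6.91% and 6.17% lie above the Sema4d-shRNA shares of 4.45% and 3.42%, Slurp1 and Lrrn4cl separate the groups, and Ly6c1 is at 19.4 CPM in both NC replicate 2 and Sema4d-shRNA replicate 1.

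The last cell inside the 5% had 2.636 UMIs of the 4 genes per 10000 and the first outside had 2.635, a difference below 1 UMI. The median score of the chosen cells was 4.81 and the highest 98.3 per 10000, while 79.6% of gated cells had no UMI of the 4 genes. Of the chosen cells, 239 (18.3%) rested on a single UMI, and the median was 4 UMIs of the 4 genes. By library this median was 6, 4, 3 and 3, higher in NC than under Sema4d-shRNA.

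The 4 genes were spread unevenly over the chosen cells. A single gene was detected in 631 cells, 2 genes in 453, 3 in 187 and all 4 in 35. Ly6c1 UMIs were present in 870 chosen cells, Slurp1 in 596, Lrrn4cl in 560 and Sprr1b in 212. By UMI count, which is not corrected for gene length, Ly6c1 led in 599 cells, Slurp1 in 283, Lrrn4cl in 189 and Sprr1b in 117, with 118 ties. Sprr1b led in 17.8% of the chosen cells of Sema4d-shRNA replicate 2 and in 5.56% to 7.42% of those of the other 3 libraries.

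Levels in the chosen cells follow from the rule and carry no test. Slurp1 stood at 305, 266, 121 and 113 CPM, against 4.82, 4.43, 3.27 and 3.92 CPM in the other gated cells. Ly6c1 stood at 463, 250, 351 and 301 CPM, Lrrn4cl at 87.2, 129, 75.7 and 69.0, and Sprr1b at 68.5, 97.6, 60.2 and 90.1. Slurp1 and Lrrn4cl were lower in both Sema4d-shRNA libraries than in both NC libraries, and the other 2 genes overlapped between groups.

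A comparison in all gated tumour cells does not depend on the choice of cells, but it does depend on the choice of genes. The 4 genes had been grouped with earlier results of these data known, so their adjusted p-values here serve as a description. In all gated cells Slurp1 stood at 24.4, 18.3, 7 and 6.73 CPM. Its Sema4d-shRNA values lay below both NC values, with a log2 difference of -1.59 (SE 0.142, edgeR adjusted p = 0.00816), or -1.45 (adjusted p = 0.0021) without host-marked cells. Lrrn4cl stood at 13.3, 15.2, 8.23 and 7.11 CPM (log2 -0.84, SE 0.111, edgeR adjusted p = 0.0199). Its call was lost without NC replicate 1 (adjusted p = 0.198) and without NC replicate 2 (0.443). Ly6c1 stood at 38.7, 19.4, 19.4 and 12.8 CPM (adjusted p = 0.619) and Sprr1b at 5.82, 6.54, 3.15 and 5.07 CPM (adjusted p = 0.414), and neither passed the edgeR test. Without Sema4d-shRNA replicate 2 the log2 difference of Sprr1b was -0.93 (adjusted p = 2.0e-06) and without Sema4d-shRNA replicate 1 it was -0.21 (0.467), each with 1 Sema4d-shRNA library assumed to vary like the NC libraries. Of 14819 genes tested in all gated cells, 15 (0.101%) were higher and 59 (0.398%) lower under Sema4d-shRNA, and without either NC library 0 genes were called higher. Without host-marked cells 19 (0.13%) were higher and 88 (0.6%) lower. In these sums, fewer cells with a gene and fewer UMIs per cell cannot be told apart.

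The share of gated cells with at least 1 UMI was 8.33%, 7.05%, 5.07% and 4.33% for Slurp1. In myeloid cells of the same libraries, which should lack Slurp1, it was 0.773%, 0.377%, 0.412% and 0.183%. The gated cells had medians of 9042.5 to 10876 UMIs and the myeloid cells 3778 to 4702. After thinning to 2000 UMIs the shares were 2.85%, 2.45%, 1.35% and 1.27% in gated cells and 0.344%, 0.167%, 0.304% and 0.0581% in myeloid cells; 215 to 377 gated and 382 to 722 myeloid cells per library were shallower and left out. For Ly6c1 the thinned shares were 1.94% to 4.86% against 0.167% to 0.559%, for Lrrn4cl 1.24% to 2.89% against 0.0859% to 0.291%, and for Sprr1b 0.578% to 0.953% against 0.0335% to 0.174%. In every library and for each of the 4 genes the gated share was above the myeloid share.

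To see how far the 4 genes were found in the same cells, each was left out in turn: the 5% of gated cells highest in the other 3 genes were chosen, and the gene left out was measured in them. The 4 genes had been grouped with earlier results of these data known, so the values are a description, with no test. Slurp1 stood at 238, 196, 41.1 and 34.1 CPM in such cells against 9.61, 9.03, 5.79 and 5.87 CPM in the rest (fitted log2 difference 3.76, SE 0.567). Ly6c1 stood at 306, 127, 139 and 35.4 CPM against 20.8, 12.7, 16.1 and 12.1 (log2 3.12, SE 0.458). In all 4 libraries the chosen cells lay above the rest for both genes, and the fold was smallest in Sema4d-shRNA replicate 2 for Ly6c1 and in both Sema4d-shRNA libraries for Slurp1.

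Lrrn4cl, the gene with the smallest SE, stood at 67.0, 70.2, 40.8 and 21.3 CPM in cells chosen by the other 3 genes against 9.49, 12.6, 7.09 and 6.68 CPM in the rest (log2 2.47, SE 0.153). Sprr1b stood at 55.9, 65.5, 26.1 and 13.7 CPM against 2.14, 3.14, 2.37 and 4.87 CPM (log2 3.71, SE 0.694). Again the chosen cells were above the rest in all 4 libraries. Between 63.9% and 91.3% of the cells chosen this way were among the 1306. Without host-marked cells the log2 differences were 2.54 to 3.72. For Slurp1, Ly6c1 and Sprr1b the fold was smaller in both Sema4d-shRNA libraries than in both NC libraries, a difference that was not tested.

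**Figure D2:**
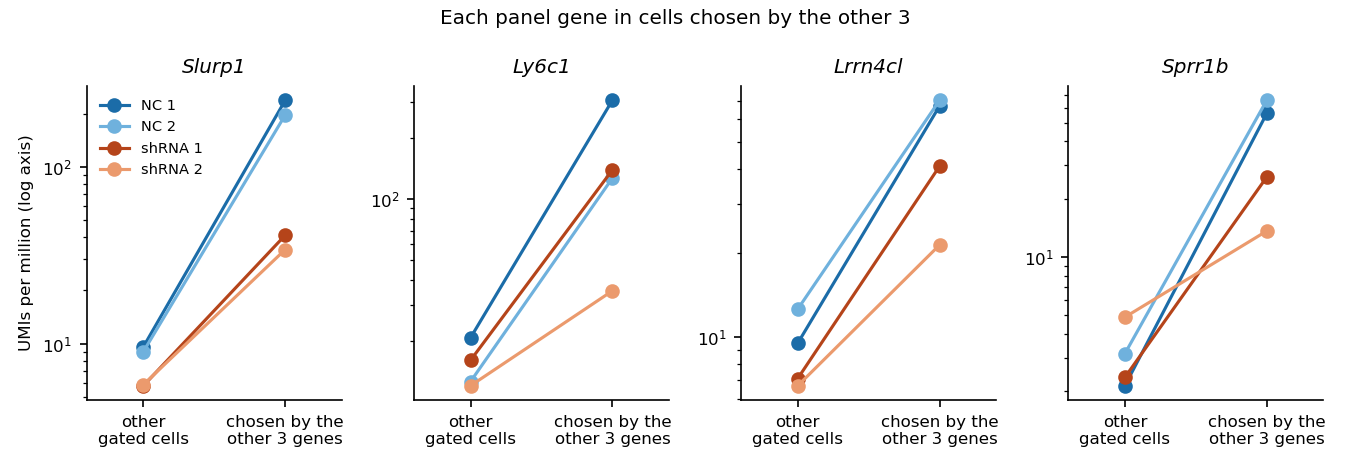
Level in CPM (log axis) of each of the 4 genes in the remaining gated cells and in the cells chosen by the other 3 genes, with a line for each library. Every line climbs, and Sprr1b in Sema4d-shRNA replicate 2 (from 4.87 to 13.7 CPM) and Ly6c1 in the same library (from 12.1 to 35.4 CPM) climb least.

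The rest of the transcriptome was then compared between the chosen and the other gated cells within each library, without the 4 genes and the gate genes. Ly6a rose most among the genes named by rule, followed by Crip2, Dcn, Plxna2 and Mustn1, and nearly all tested genes of the S-phase and G2/M lists were lower. Of 12830 genes tested, 2179 (17.0%) were higher and 2173 (16.9%) lower in the chosen cells (edgeR quasi-likelihood test, adjusted p under 0.05, n = 4 libraries). The median log2 difference of all genes was 0.0064. Without host-marked cells 2306 (18.1%) were higher and 2206 (17.3%) lower of 12726, and 2056 and 2065 genes were called in both fits.

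Ly6a stood at 798, 417, 614 and 498 CPM in the chosen cells and at 55.1, 35.7, 55.0 and 31.6 CPM in the other cells (log2 3.75, SE 0.101, edgeR adjusted p = 3.1e-09). The lowest chosen library was above the highest other library by a wide margin, and without host-marked cells the difference was 3.61. With Ly6c1 out of the panel it was 2.63 and still passed. Ly6a, Ly6c1, Ly6c2 and Ly6i are near copies of one another, so reads could have been shared between them, and how the authors treated such reads is not given in the sources used here. Other family members that rose were Lynx1 (log2 2.18), a membrane-anchored modulator of nicotinic receptors, Lypd2 (2.71, at under 2 CPM) and Ly6e (0.87). Lynx1 stood at 27.9, 25.7, 16.5 and 16.2 CPM against 5.64, 5.96, 4.02 and 3.80. In total 4 of 11 tested Ly6/uPAR genes were higher and 0 lower, with a median of 0.87. Of all genes tested, 17.0% were higher and 16.9% lower. A gene low in the other cells, such as Lypd2, could pass the filter on low counts only through the chosen cells. The filter thus fixed the direction of this count in part.

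The 4 family genes called higher all lie in the stretch of chromosome 15 that holds Slurp1 and Ly6c1. Of 9 genes tested within 500 kb of either gene, those 4 were higher and 0 lower, against 17.0% and 16.9% of all genes. Ly6d (log2 0.69, edgeR adjusted p = 0.464), Ly6i (1.19, 0.121), Them6 (0.54, 0.357), Ly6c2 (0.06, 0.933) and Jrk (0.00) did not pass. Calls among the neighbours tested were thus in one direction, which the filter fixed in part, and did not run along the whole stretch. Psca, Ly6k, Ly6g and Ly6f of this stretch did not reach the filter.

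Squamous genes, the group to which Sprr1b belongs, moved in part. Of 14 tested, 4 were higher and 1 lower, with a median of 0.53, against 17.0% higher and 16.9% lower of all genes. In the comparison limited to low-cycle cells, described below, 1 of 8 was higher and 0 lower, with a median of 0.76. There 383 genes were higher and 235 lower of all 9404 tested. Sbsn, a suprabasal keratinocyte protein, stood at 25.4, 32.4, 11.4 and 10.2 CPM against 3.89, 3.46, 3.16 and 3.95 (log2 2.43, edgeR adjusted p = 0.00118). Every chosen library was above the other cells, and more so in NC. Sprr2k rose by 2.17 (adjusted p = 0.000716) at under 5 CPM. Sprr1a, the near neighbour of Sprr1b, stood at 80.1, 92.5, 20.5 and 36.5 CPM against 20, 18.2, 19.5 and 28.2, high only in the NC libraries, and did not pass over all 4 (log2 1.4, edgeR adjusted p = 0.174).

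Of the genes named by rule, Crip2, a LIM-domain protein of vascular tissue, stood at 146, 126, 61.9 and 80.4 CPM against 16, 18.9, 11.3 and 8.64 (log2 2.95, SE 0.148, edgeR adjusted p = 3.3e-06). Plxna2, a semaphorin receptor, stood at 40.0, 41.2, 21.5 and 17.5 CPM against 5.10, 5.30, 3.07 and 3.96 (log2 2.80, SE 0.143, adjusted p = 9.8e-10). Cd248, the stromal and pericyte surface protein endosialin, stood at 86.2, 58.1, 43.0 and 30.4 CPM against 11.2, 11.8, 9.38 and 6.98 (log2 2.47). For these 3 genes no chosen library overlapped the other cells, and the values of both NC libraries exceeded those of both Sema4d-shRNA libraries in the chosen cells.

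The remaining genes named by rule were Mustn1 (log2 2.56), a small musculoskeletal nuclear protein, Ptgs1 (2.47), the constitutive cyclooxygenase, Serpinb1a (2.25), an inhibitor of neutrophil proteases, Pla1a (2.15), a phosphatidylserine phospholipase, Tns1 (2.10), a focal adhesion protein, Anxa8 (2.06), an annexin, Heg1 (2.04), a receptor of endothelial junctions, and Chst1 (1.97), a sulfotransferase. Igfbp4, which binds insulin-like growth factors, stood at 1973, 2325, 1958 and 1155 CPM against 487, 523, 607 and 326 (log2 1.96, SE 0.0799, edgeR adjusted p = 1.1e-09). Each chosen library was above the other cells of its own and of every other library. The 15 genes named as highest passed the test in each alternative run, with log2 differences from 1.49 to 4.03. With Ly6c1 out of the panel they lay between 1.53 and 2.63.

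**Figure D3:**
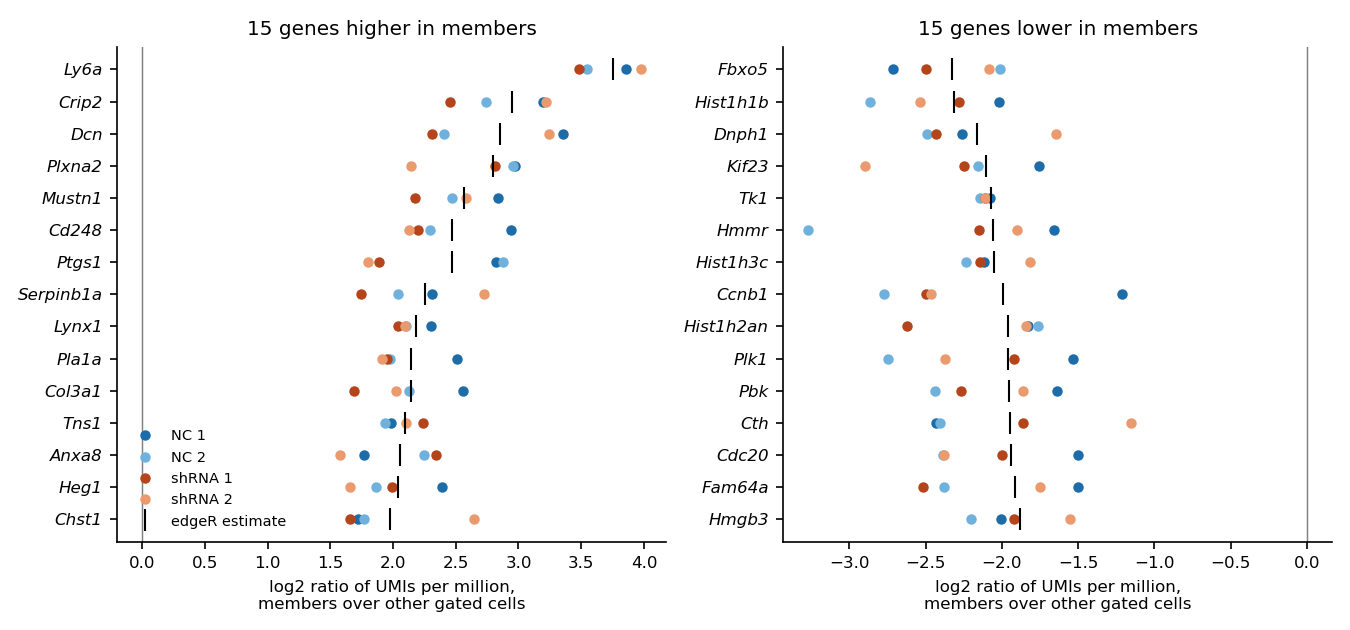
Log2 ratio of CPM, chosen cells (members) over other gated cells, of the 15 genes named as highest (left) and the 15 named as lowest (right). Points are libraries and bars the edgeR estimates. All points lie to the right of 0 on the left panel, with Ly6a farthest (3.75), and to the left of 0 on the right panel.

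Matrix genes were higher in part. Of 33 tested, 15 rose and 2 fell, with a median of 0.95, against 17.0% and 16.9% of all genes. Without host-marked cells these were 17 and 4 of 29, with a median of 0.53, against 18.1% and 17.3%. A gene low in the other cells could pass the filter on low counts only through the chosen cells, which fixed the direction of these counts in part. Fn1, fibronectin, stood at 2483, 3176, 2035 and 1488 CPM against 1138, 1287, 1022 and 942 (log2 1.06, edgeR adjusted p = 2.4e-06). Dcn, the small proteoglycan decorin, stood at 60, 62.8, 46.1 and 43.9 CPM against 5.87, 11.8, 9.28 and 4.63 (log2 2.85, adjusted p = 0.000653), and Col3a1 at 428, 428, 343 and 197 CPM against 72.9, 98.1, 106 and 48.3 (log2 2.14, adjusted p = 0.000714). Chosen and other cells did not overlap for these 3 genes. Without host-marked cells Dcn stood at 50.7, 60.9, 47.1 and 10.4 CPM in chosen cells, so that Sema4d-shRNA replicate 2 fell below the other cells of NC replicate 2, and Col3a1 at 405, 431, 347 and 128 CPM; both still passed. Both Dcn and Col3a1 are also fibroblast markers.

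The whole fibroblast list of 11 genes summed to 574, 543, 504 and 443 CPM in chosen cells against 119, 162, 160 and 91.4 CPM, and 6 of 10 tested were higher. Without host-marked cells the sums were 508, 543, 492 and 177 CPM, and 5 of 9 were higher. Of all genes tested, 17.0% were higher with and 18.1% without host-marked cells. The filter on low counts fixed the direction of these counts in part. The fibroblast list itself served to mark cells for removal, so the fall of its sum was fixed in part too. Col1a1 did not pass, with 18.0, 26.2, 40.8 and 17.7 CPM without host-marked cells against 22.3, 33.6, 25.1 and 23.9 CPM in all other gated cells, and Col1a2 was lower without host-marked cells (log2 -1.4, edgeR adjusted p = 0.00148), at 0.68 to 6.35 CPM. Dpt rose by 2.37 and Pdgfra by 0.48. The part of fibroblast RNA in the matrix genes was not tested.

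The 19 endothelial genes summed to 38.2, 57.4, 314 and 752 CPM in chosen cells and to 36.8, 27.6, 31.2 and 26.5 CPM in the others, with 0 of 14 passing the test. Without host-marked cells the sums were 36.4, 36.4, 56.1 and 19.5 CPM, Kdr was at 0 in all 4 libraries, and Cdh5 at 0.219 to 0.454 CPM. The endothelial list itself served to mark cells for removal, so that rule fixed the fall of its sum in part. Macrophage genes summed to 234 to 595 CPM against 230 to 614 CPM and gave 0 calls of 12. Of all genes tested, 17.0% were higher and 16.9% lower. T and NK cell genes summed to 7.76 to 19.8 CPM against 8.13 to 24.5, pericyte genes to 17.9 to 38.3 against 16.7 to 25.2, and luminal mammary genes to 3.04 to 8.53 against 5.66 to 7.70; in these 3 lists the ranges of the classes overlapped. No B cell gene reached the filter. The smooth muscle genes Tagln (log2 -3.30, edgeR adjusted p = 3.2e-05) and Acta2 (-1.97, 0.00156) fell, both at under 7 CPM.

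Genes of the cell cycle were lower in the chosen cells, against 17.0% higher and 16.9% lower of all genes. Of 30 S-phase genes tested, 0 were higher and 29 lower with a median log2 difference of -1.11, and of 39 G2/M genes 0 were higher and 38 lower with a median of -1.62. Tk1, the thymidine kinase of S phase, stood at 14.5, 12.2, 19.5 and 14.6 CPM against 61.1, 53.6, 84.2 and 63.0 (log2 -2.07, SE 0.0921, edgeR adjusted p = 1.9e-10). Plk1, a mitotic kinase, stood at 20.8, 6.41, 15.1 and 9.74 CPM against 60.2, 43.0, 57.3 and 50.4 (log2 -1.96, adjusted p = 4.3e-06). Mki67 stood at 17.6, 10.8, 14.1 and 13 CPM against 55.3, 46.6, 57.3 and 49.6 (log2 -1.86). For all 3 the highest chosen library was below the lowest other library.

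The 15 genes named as lowest were led by Fbxo5 (log2 -2.33), an inhibitor of the anaphase-promoting complex, the histone gene Hist1h1b (-2.31), Dnph1 (-2.16), Kif23 (-2.11), a kinesin of cytokinesis, and included Hmmr (-2.06), Ccnb1 (-1.99) and Cdc20 (-1.94). When the score was taken on cells thinned to 2000 UMIs, all 15 passed with smaller differences, from -1.44 to -0.91. The cell-cycle lists summed to a median of 7.47, 7.86, 7.96 and 7.89 UMIs per 10000 in chosen cells and 10.7, 10.7, 12.5 and 11.6 in the others. When both classes were limited to cells with under 5 such UMIs per 10000, an alternative added after the data were seen that left 308 chosen and 3071 other cells, 383 genes were higher and 235 lower of 9404. Of these, 369 and 173 were among the calls from all cells. Ly6a (log2 3.54) and Crip2 (2.88) were close to their values in all cells, Plxna2 (1.69) and Igfbp4 (1.27) were smaller, and all 15 genes named as highest passed. That comparison rests on fewer cells of both classes.

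Other groups of genes moved more modestly, against background shares of 17.0% higher and 16.9% lower. Type I interferon genes were higher in 22 of 35 with 0 lower (median 0.41), and interferon gamma genes in 14 of 25 with 1 lower (median 0.40). Irf7, a transcription factor of the interferon response, stood at 114, 60.1, 126 and 110 CPM against 54.9, 39.3, 54.1 and 52.3 (log2 1.04, edgeR adjusted p = 1.3e-07), with no overlap between classes. Isg15 rose by 0.41 and Gbp2 by 0.86. Among low-cycle cells 5 of 34 type I genes were higher and 1 lower, with a median of 0.04. Of all 9404 genes tested in low-cycle cells, 383 were higher and 235 lower, a smaller background share than in all cells.

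Immediate early genes were higher in 17 of 23 and lower in 2 (median 0.56). Dusp1, a phosphatase of MAP kinases, stood at 187, 191, 125 and 116 CPM against 47.2, 52.5, 48.8 and 51.2 (log2 1.65, edgeR adjusted p = 0.000481), above the other cells in each library and highest in NC. Klf2 rose by 1.26 at 274 to 437 CPM. Hypoxia genes were higher in 9 of 18 and lower in 1 (median 0.21), among them Ndrg1 (1.29), while in low-cycle cells 2 of 17 were higher and 2 lower and the median turned to -0.23. Immediate early genes in low-cycle cells were higher in 7 of 22 and lower in 1. Of all 9404 genes tested in those cells, 383 were higher and 235 lower. S100 genes were higher in 8 of 14 with 0 lower, led by S100a16 (1.30) and S100a13 (1.13). Immediate early genes are also known to respond to tissue dissociation, whose part was not tested.

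Cholesterol synthesis genes were lower in 14 of 23 and higher in 1 (median -0.41), but in low-cycle cells 1 of 22 was lower and 0 higher (median -0.09). In low-cycle cells 235 genes were lower and 383 higher of all 9404 tested. Fdps, an enzyme that makes farnesyl pyrophosphate, stood at 62.3, 58.7, 52.8 and 67.4 CPM against 119, 125, 104 and 144 (log2 -0.98, edgeR adjusted p = 1.7e-08), below in every library; in low-cycle cells it was -0.47 (adjusted p = 0.116). Ribosomal protein genes were lower in 19 of 50 with 0 higher (median -0.13). Genes of the integrated stress response, which slows translation and raises amino acid supply, were higher in 5 of 25 and lower in 8, with Psat1 (-1.34) and Asns (-1.23), both of amino acid synthesis, lower. YAP target genes were lower in 7 of 23 and higher in 2, with Ankrd1 at -1.21; in low-cycle cells 1 of 21 was lower.

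Of 29 semaphorin and plexin genes tested, 9 were higher and 2 lower (median 0.30), against 17.0% and 16.9% of all genes. Without host-marked cells 9 were higher and 6 lower (median 0.07), against 18.1% and 17.3% of all genes. Among low-cycle cells 3 of 21 were higher and 0 lower (median 0.09), against 383 higher and 235 lower of all 9404 genes tested there. Besides Plxna2, the ligand Sema3e stood at 4.19, 5.40, 3.03 and 4.47 CPM against 13.2, 14.9, 10.3 and 14.6 (log2 -1.59, edgeR adjusted p = 1.2e-06), below the other cells in all 4 libraries. Immune checkpoint ligands were higher in 6 of 11 with 0 lower. Cd274, which encodes PD-L1, stood at 12.6, 9.11, 19.5 and 11 CPM against 8.30, 6.24, 8.95 and 8.17 (log2 0.74, edgeR adjusted p = 0.000812). Pvr and Cd276 each rose by 0.81.

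**Figure D4:**
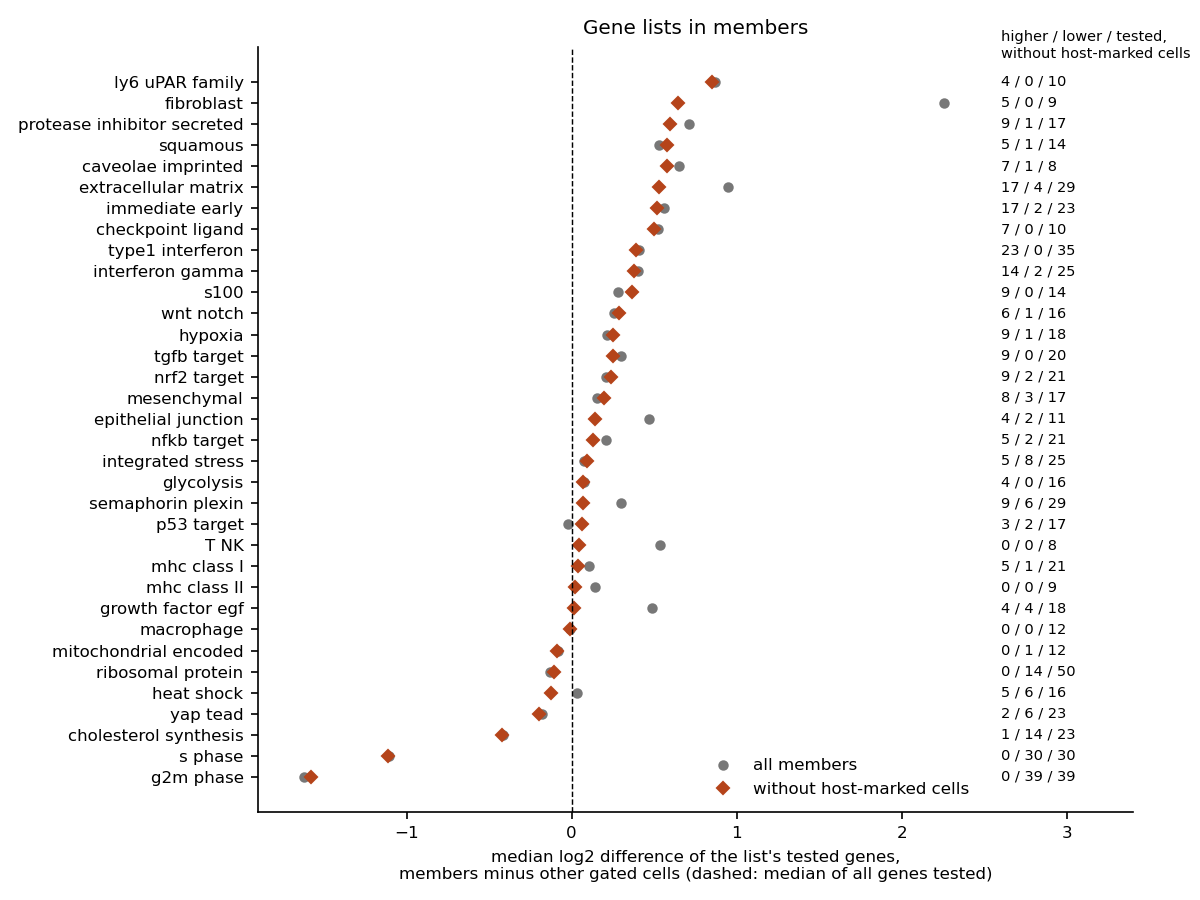
Median log2 difference, chosen cells (members) minus other gated cells, over the tested genes of each list, for all members (circles) and without host-marked cells (diamonds). The dashed line is the median of all genes tested, and the columns on the right give genes higher, lower and tested without host-marked cells. The S-phase and G2/M lists lie lowest, and the fibroblast list moves from 2.25 to 0.64 without host-marked cells. That list also served to mark the cells removed, which fixed its move in part.

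The chosen cells differed among themselves by the gene that led them, described here by library, without a test and without host-marked cells. Subsets were small, from 21 to 200 cells a library, and cells led by Sprr1b came in larger number from Sema4d-shRNA replicate 2 (51 of 117). Ly6a stood at 1094, 517, 751 and 671 CPM in cells led by Ly6c1, at 482, 424, 408 and 176 CPM in those led by Slurp1, at 249.9, 242, 220.0 and 125 CPM in those led by Lrrn4cl and at 240.0, 323, 233 and 81.6 CPM in those led by Sprr1b. In each library the cells led by Ly6c1 were highest and those led by Slurp1 next, and all 4 subsets were above the 30.7 to 54.6 CPM of the other gated cells. The order of the remaining 2 subsets changed between libraries.

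Sprr1a stood at 607, 421, 129.8 and 114 CPM in cells led by Sprr1b, the highest subset in every library, against 20, 18.2, 19.6 and 28.4 CPM in the other gated cells. In cells led by Ly6c1 it stood at 24.9, 26.5, 4.77 and 15.6 CPM, above the other cells in both NC libraries and below them in both Sema4d-shRNA libraries. Igfbp4 ranged from 707 to 2605 CPM over these subsets and libraries and was above the other cells (326 to 607 CPM) in each. Top2a was below the other cells of its library in every subset except cells led by Sprr1b in NC replicate 1, where it stood at 415 against 186 CPM and Mki67 at 102 against 55.5 CPM, in 22 cells.

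Ly6a was also higher in cells with more UMIs of the 4 genes. It stood at 184, 186, 276 and 100.1 CPM in cells with 1 such UMI, at 416, 326, 382 and 255 with 2 to 4, and at 882, 471, 680 and 423 with 5 or more, in that order in each library. The median depth of these cells was 2834, 6837 and 13720 UMIs. The grades use the same UMIs that chose the cells, and reads could have been shared between Ly6a and Ly6c1. The order is therefore a description, with no test.

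Sema4d-shRNA was next compared with NC within the chosen cells. H19, an imprinted long noncoding RNA, and Pcolce2, Tspan15 and Gchfr were lower under Sema4d-shRNA, and Inhba, Clu, Cxcl12, Id1 and Atf4 were higher, with and without host-marked cells. Of 9874 genes tested, 142 (1.44%) were higher and 116 (1.17%) lower (edgeR, adjusted p under 0.05, n = 2 against 2), with a median log2 difference of 0.0045. Without host-marked cells 75 (0.769%) were higher and 122 (1.25%) lower of 9750, and 57 and 97 genes were called in both. The counts moved with single libraries: without host-marked cells, 56 and 64 genes were called higher and lower without NC replicate 1, 48 and 101 without NC replicate 2, 215 and 192 without Sema4d-shRNA replicate 1, and 97 and 106 without Sema4d-shRNA replicate 2. Depth and score also differed between the groups: the chosen cells of the Sema4d-shRNA libraries were shallower and held a median of 3 UMIs of the 4 genes against 4 and 6 in NC. With a minimum of 3 such UMIs, 141 and 100 genes were called. Leaving out cells of very high UMI count or with markers of other types left 11 and 37 genes and took away the calls of Cxcl12, Id1 and Chac1. In low-cycle cells alone 21 and 14 genes passed, among them Pcolce2, Clu and Id1, while H19, Tspan15, Gchfr, Inhba, Cxcl12 and Atf4 kept their direction and did not pass.

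Whether a group difference in the chosen cells differed from that in the other gated cells was tested as an interaction, that is, the group difference in chosen cells minus that in the other gated cells. It was above 0 for 209 (1.52%) and below 0 for 123 (0.894%) of 13753 genes, and for 102 (0.759%) and 112 (0.833%) of 13445 without host-marked cells, with 61 and 83 genes shared. These fits had the library as a block. Without it, 9 and 1 genes passed, among them Inhba and Cxcl12, and H19 as the 1 gene below 0. The calls of Clu, Nudt4, Pcolce2, Sprr1a, Fst and Dhrs1 were lost, as were those of Gchfr and Tspan15. Leaving out NC replicate 1 gave 130 and 42 genes, NC replicate 2 gave 175 and 83, Sema4d-shRNA replicate 1 gave 393 and 175, and Sema4d-shRNA replicate 2 gave 177 and 135.

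H19 stood at 471, 451, 164 and 130 CPM in the chosen cells, with both NC values above both Sema4d-shRNA values (log2 -1.62, SE 0.144, edgeR adjusted p = 1.7e-05). In the other gated cells it stood at 142, 145, 90.5 and 93.8 CPM. The fall was larger in the chosen cells by 1.05 on the log2 scale (interaction -1.05, adjusted p = 3.1e-10). With the top 5% taken within each library the interaction was -0.72 and did not pass (adjusted p = 0.0917). By leading gene, without host-marked cells, H19 stood at 620, 386, 236 and 260.0 CPM in cells led by Ly6c1, 100.3, 349.5, 82.0 and 96.0 in those led by Slurp1, 195, 814, 37.2 and 28.7 in those led by Lrrn4cl and 200, 140.3, 76.4 and 77.3 in those led by Sprr1b. In each of these subsets both NC libraries were above both Sema4d-shRNA libraries.

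Pcolce2, an enhancer of procollagen processing, stood at 189, 217, 95.9 and 70.6 CPM in the chosen cells and 59.7, 68.9, 63.0 and 46.3 in the others (log2 -1.25, SE 0.151, edgeR adjusted p = 0.000311; interaction -1.09). Tspan15, a tetraspanin that partners the protease ADAM10, stood at 127, 153, 57.5 and 65.8 CPM against 32.2, 34.0, 23.1 and 22.1 (log2 -1.15, adjusted p = 0.000977; interaction -0.67). Gchfr, the feedback regulator of GTP cyclohydrolase, stood at 111, 119, 49.8 and 52.4 CPM against 45.4, 50.4, 38.7 and 31.2 (log2 -1.14; interaction -0.76). In each case the NC libraries were higher without overlap in the chosen cells.

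Sprr1a fell by 1.57 (edgeR adjusted p = 0.0316) in the chosen cells, from 80.1 and 92.5 CPM to 20.5 and 36.5, and its interaction was -1.96 (adjusted p = 9.9e-13). The fall lost its call without host-marked cells (log2 -1.43, adjusted p = 0.0938). Leaving out cells of very high UMI count or with markers of other types brought the interaction to -0.81 (adjusted p = 0.521). Fst, which encodes follistatin, a binder of activins, stood at 38.6, 30.0, 11.4 and 14.2 CPM in chosen cells and 16.2, 17.2, 21.8 and 14 in the others (interaction -1.59). Fst lost its interaction call in 5 alternatives, among them the top 10% of cells (-0.71, adjusted p = 0.266).

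Inhba, which encodes a subunit of activin A, stood at 12.2, 12.8, 49.4 and 43.4 CPM in the chosen cells, higher under Sema4d-shRNA without overlap (log2 1.93, SE 0.193, edgeR adjusted p = 5.9e-05). In the other gated cells it stood at 39.6, 37.7, 52.1 and 52.7 CPM, and the interaction was 1.43 (adjusted p = 1.4e-07). Without host-marked cells the difference in chosen cells was 1.99. The NC libraries were the ones in which chosen and other cells lay far apart. Clu, the secreted chaperone clusterin, showed the same order, with 45.7, 39.5, 95.5 and 119 CPM in chosen and 141, 150, 116 and 188 CPM in other cells (log2 1.36, SE 0.169, adjusted p = 0.000628; interaction 1.25). With cells thinned to 2000 UMIs before scoring, the Clu interaction was 0.77 (adjusted p = 0.0873).

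Cxcl12, a chemokine, stood at 23.5, 23.6, 77.4 and 49.5 CPM in chosen cells and at 75.4, 80.2, 71.0 and 74.3 in the others (log2 1.46, SE 0.188, edgeR adjusted p = 0.000655; interaction 1.49). Without host-marked cells the chosen cells had 23.7, 23.8, 61.6 and 44.9 CPM. Id1, an inhibitor of helix-loop-helix factors, stood at 46.3, 51.3, 116 and 101 CPM against 42.6, 47.5, 61.0 and 41.3 (log2 1.19, adjusted p = 0.000264; interaction 0.95). Both groups were again apart without overlap in the chosen cells.

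Of 25 integrated stress response genes, 4 were higher and 0 lower under Sema4d-shRNA (median 0.35), against 1.44% and 1.17% of all genes. The counts were the same without host-marked cells (median 0.32). Atf4, the transcription factor of that response, stood at 130, 112, 230 and 216 CPM in chosen cells and 243, 238, 340 and 302 in the others (log2 0.91, edgeR adjusted p = 0.00229; interaction 0.43). Its call was lost without NC replicate 2. Chac1, a glutathione-degrading target of Atf4, stood at 13.2, 12.2, 29.9 and 35.3 CPM (log2 1.38, adjusted p = 0.00312; interaction 1.00). By group within the chosen cells, 0 of 26 S-phase genes (median 0.09) and 0 of 34 G2/M genes (median -0.0075) passed in either direction. Of 5 Ly6/uPAR genes tested, 0 passed. Against 1.44% higher and 1.17% lower of all genes, lists this short can hold 0 calls whether or not they differ.

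Some group differences came in both classes. C1qa, a complement gene of macrophages, stood at 58.5, 73.9, 29.6 and 22.7 CPM in chosen cells (log2 -1.29, edgeR adjusted p = 0.00104) and at 64.6, 77.7, 27.8 and 26.3 in the others, with an interaction of 0.03 (adjusted p = 0.978). Of 10 macrophage genes, 5 were lower in the chosen cells under Sema4d-shRNA and 0 higher, against 1.17% and 1.44% of all genes. In the interaction 0 of 12 passed, where 1.52% of all genes lay above and 0.894% below 0, so this count decides nothing. Mitochondrially encoded genes were lower in 8 of 12, for example mt-Cytb at 547, 658, 259 and 283 CPM (log2 -1.12, adjusted p = 0.00118; interaction -0.05). The median mitochondrial share of UMIs was 0.685%, 0.639%, 0.215% and 0.298% in chosen cells and 0.728%, 0.654%, 0.249% and 0.33% in the others.

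Another set of calls depended on the host-marked cells. Of 15 endothelial genes tested, 7 were called higher under Sema4d-shRNA in the chosen cells, against 1.44% of all genes. A gene low in NC could pass the filter on low counts only through the Sema4d-shRNA libraries, so the filter fixed the direction of this count in part. Without host-marked cells 2 were tested and 0 passed. The endothelial list also served to mark the cells removed, so the removal fixed this loss in part. Kdr, the receptor for vascular endothelial growth factor, stood at 0, 0, 16.8 and 26.8 CPM and at 0 in all 4 libraries without those cells. Esm1 stood at 0, 0, 15.5 and 23.5 CPM and then at 0, 0, 0.346 and 0.454. Angpt2, an endothelial ligand of the receptor Tek, stood at 4.61, 5.74, 27.6 and 31.3 CPM and then at 4.83, 5.44, 4.15 and 6.35 CPM (log2 0.05, edgeR adjusted p = 0.976). Without the host-marked cells the groups overlapped for Angpt2.

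Cxcl9, a chemokine induced by interferon gamma, stood at 43.4, 42.9, 320 and 380 CPM (log2 3.06, edgeR adjusted p = 4.5e-08) and, without host-marked cells, at 40.6, 43.2, 103 and 56.3 CPM (log2 0.98, adjusted p = 0.0276). The groups stayed apart, and the difference was much smaller. For Crip2 and Prkcdbp the difference was larger without host-marked cells: Crip2 was lower by group at -0.90 with them and at -1.48 (adjusted p = 7.0e-06) without them, where it stood at 150, 127, 50.9 and 45.4 CPM. Prkcdbp, which encodes the caveolar protein cavin-3, went from -0.89 to -1.26.

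**Figure D5:**
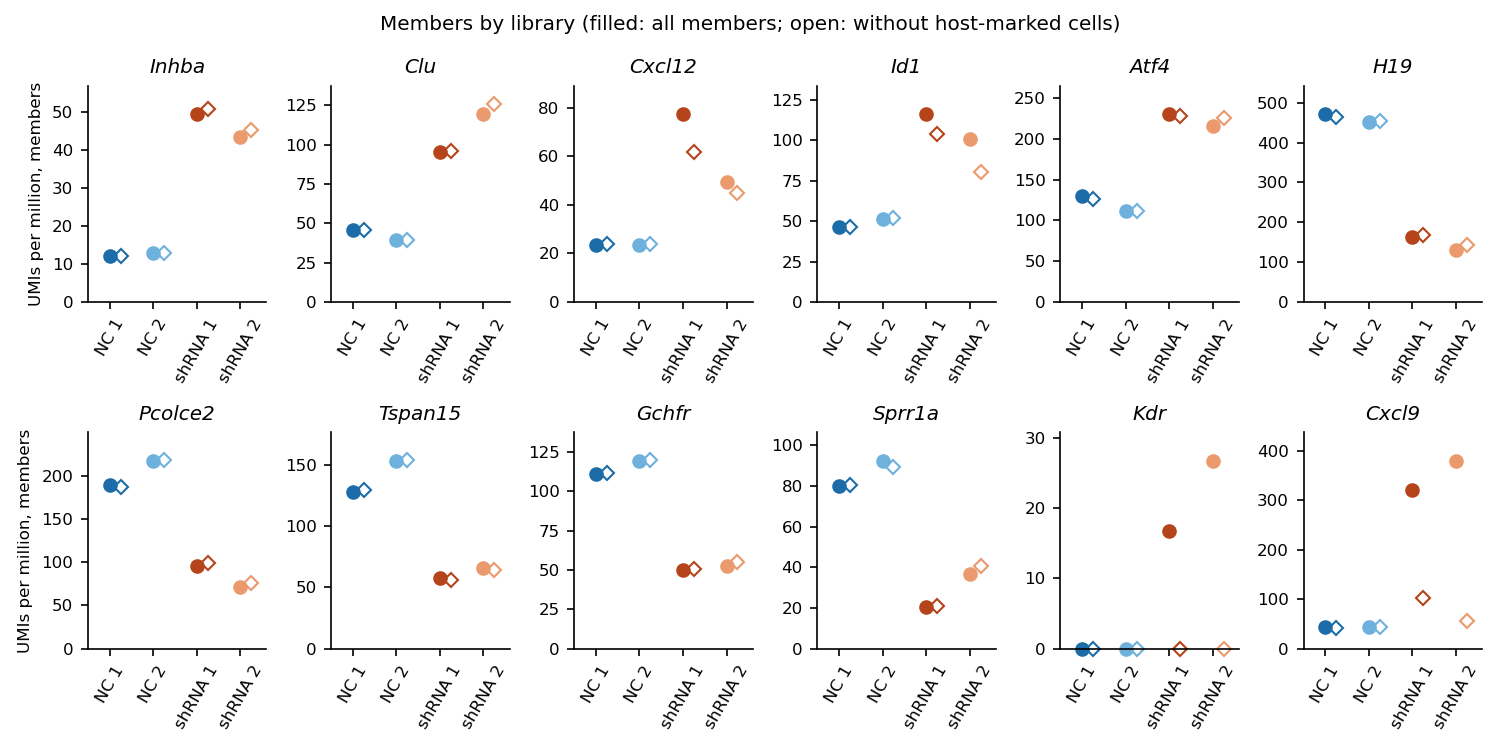
Level in CPM of 12 genes in the chosen cells (members) of each library, with all members as filled points and members without host-marked cells as open diamonds. The first 5 genes are higher and the next 5 lower under Sema4d-shRNA, Kdr is at 0 in all libraries without host-marked cells, and Cxcl9 falls from 320 and 380 CPM to 103 and 56.3 CPM without them.

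The chosen cells summed to 2462920 to 4770493 UMIs per library. With 2 libraries a group, the share of chosen cells cannot pass an exact test.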

How the data were processed

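Dissociated cells of 4 transplanted tumour libraries, 2 NC and 2 Sema4d-shRNA, were profiled by droplet single-cell RNA sequencing. The authors deposited 1 matrix of UMI counts per library, made with PISA 1.0 per the file headers. STAR 2.5.1b and the builds GRCh38 and mm10 are named, per the submitters' processing notes, without further detail. For the annotation, strand and calling of cells, nothing is given in the sources used here. All deposited cells had at least 1000 UMIs.

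Groups follow the sample titles. Members and gene lists were chosen with earlier results of these data known. Cells were gated and scored as described above. Raw counts were summed per library and class and tested with edgeR 4.0.16 (filterByExpr, TMM scaling, robust quasi-likelihood fit) in R 4.3.3, with Benjamini-Hochberg adjustment over all genes tested and a threshold of 0.05. The comparison of classes and the interaction had the library as a block, and the comparison of groups within members had none. The 4 panel and 9 gate genes stayed in the totals and out of these tests. Where cells were thinned, 2000 UMIs were drawn per cell.

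Named genes were the 15 with the largest change in each direction among those called, at least 20 CPM on average in the higher class and changed one way in all 4 libraries, up to 10 by p in each direction for the groups, up to 3 per gene list, and the panel. Outside this rule, Cdh5, Col1a2, Dpt, Isg15, Mki67, Pdgfra, Top2a and the neighbours of Slurp1 and Ly6c1 were chosen after their values were seen. A gene that the rule would name is not reported here. No doublet caller was run. One alternative left out cells above 3 times the median UMIs of their library or with at least 2 UMIs of at least 2 genes of another cell type. The other alternatives changed the cut (3%, 10%, 5% within each library), the panel, the minimum of UMIs, the scaling, the filter, the tool (DESeq2 1.42.0), the block and the libraries. Removal of host-marked cells and the limit to low-cycle cells were added after seeing the data. Deviations of same-numbered libraries correlated at r = 0.0126 over 9884 genes, so replicate numbers were not taken to pair them. On simulated counts the test recovered 75.8% of genes changed by 1 on the log2 scale between classes (12719 genes) and 57.1% between groups within members (9681 genes), and 91.9% and 97.9% of those changed by 2. Unchanged genes called numbered 9 and 8. The simulated counts had the same dispersion for every gene and no library effect besides depth, so these rates need not hold for the data.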

Additional observations from a re-analysis of the deposited data

Results flagged for a closer look

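For 29 named genes the group difference in the chosen cells differed from that in the other gated cells by the interaction test (edgeR, adjusted p under 0.05), in one or both of the fits with and without host-marked cells. An interaction above 0 means that the difference, Sema4d-shRNA minus NC, was higher in the chosen cells. In both fits it was above 0 for Cxcl12 (log2 1.49), Inhba (1.43), Clu (1.25), Chac1 (1.00), Id1 (0.95), Nudt4 (0.74), Ifi44 (0.62), 1810011O10Rik (0.46) and Atf4 (0.43). It was below 0 for Sprr1a (-1.96), Fst (-1.59), Pcolce2 (-1.09), H19 (-1.05), Dhrs1 (-0.91), Gchfr (-0.76) and Tspan15 (-0.67). Both fits had the library as a block. Without it, in all chosen cells, H19 alone of those below 0 kept its call, and Clu and Nudt4 lost theirs.

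In 9 genes the interaction passed only with host-marked cells: Ubd (adjusted p = 8.3e-10), Angpt2 (3.3e-09), Kdr (3.5e-09), Eng (6.2e-09), Epas1 (2.1e-07), Timp3 (4.4e-07), Esm1 (1.5e-06), Hbegf (0.0147) and Stc1 (0.0347), all by edgeR. Timp3 stood at 0.629, 0.675, 28.9 and 43.4 CPM with those cells and at 0.219, 0.680, 0 and 0 CPM without them. Kdr and Stc1 stood at 0 CPM in the chosen cells of both NC libraries. Genes this low in NC and in the other cells could pass the filter on low counts only through the chosen Sema4d-shRNA cells. The filter thus fixed the direction of such calls, and their adjusted p-values lend no support. In 4 genes the interaction passed only without host-marked cells: Cxcl9 (log2 1.37), Tnnt2 (0.62), Crip2 (-0.75) and Prkcdbp (-0.68). Whether the share of host-marked cells, 9.09% in Sema4d-shRNA replicate 2 and 0.637% to 2.90% in the other libraries, accounts for all of these was not tested.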

How the results depend on the processing

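For chosen against other cells, genes higher and lower numbered 1597 to 2137 and 1763 to 2136 when 1 library was left out (1635 to 2191 and 1796 to 2244 also without host-marked cells), 383 and 235 in low-cycle cells, and 1380 lower without cells of high UMI count or other-type markers. Of 2343 values of 88 genes under alternatives, 2243 kept direction and call, 99 lost the call and 1 turned (Wnt7b, -0.092 without cells of high UMI count or other-type markers). The genes named as lowest were not called in low-cycle cells, where 4 of 15 were tested, and 14 of 15 were called with the top 3%.

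For Sema4d-shRNA against NC within the chosen cells, genes higher and lower numbered 32 to 500 and 25 to 309 with 1 library left out (48, 56 without NC replicate 1, to 215, and 64 to 192, also without host-marked cells). Higher genes were 391 without a filter, 93 with the top 10%, 11 without cells of high UMI count or other-type markers, 75 without host-marked cells, 19 with DESeq2 besides, and 21 in low-cycle cells. Lower genes were 48 with DESeq2, 269 without a filter, 194 with 5% within each library, 37 without cells of high UMI count or other-type markers, 38 with DESeq2 and no host-marked cells, and 14 in low-cycle cells. With the replicate number as a block, 359 were higher and 268 lower, and without host-marked cells 207 and 245. The numbers share only a label, with r = 0.0126. Of 717 values of 32 genes, 643 kept direction and call, 63 lost the call and 11 turned. Those were Angpt2 (-0.026 and -0.32 with a library left out and no host-marked cells) and Sema4d, never called: 0.019 with 5% within each library, 0.15 without host-marked cells, 0.21 with DESeq2 and 0.14 with the replicate block besides, 0.11 and 0.19 with a library left out (range -0.87 to 0.19), and 0.13 to 0.64 (0.202) with both.

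Interaction calls above and below 0 numbered 130 to 393 and 42 to 175 with 1 library left out (46, 55 and 90 to 144, and 19 and 61 to 111, also without host-marked cells), 104 and 21 with DESeq2, 13 and 10 with DESeq2 and no host-marked cells, 21 and 13 without cells of high UMI count or other-type markers, 102 above without host-marked cells, and 9 and 1 with no replicate block.

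In all gated cells, genes higher and lower numbered 0 to 563 and 3 to 584 with 1 library left out, and 8 were higher with the replicate block. The range with a library left out was -1.78 to -1.36 for Slurp1, -1.21 to -0.22 for Ly6c1, -0.94 to -0.75 for Lrrn4cl, -0.93 to -0.21 for Sprr1b and -0.77 to -0.25 for Sema4d. With the replicate block Lrrn4cl was -0.84 (edgeR adjusted p = 0.0534). For the gene left out of the panel it was 3.38 to 4.11 for Slurp1, 2.77 to 3.50 for Ly6c1, 2.30 to 2.64 for Lrrn4cl and 3.27 to 4.24 for Sprr1b. The log2 ratio of shares ranged from -0.93 to -0.56, and 5% within each library fixes the share and gives no value. The cause of these changes was not tested. Depth limits the choice of single cells: 18.3% of the chosen cells rest on 1 UMI. The number of libraries, 2 a group, limits the group comparisons.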
